A study of Rattus norvegicus with 6 samples.

Results

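A set of 10 classical astrocyte marker genes was followed in quiescent and active neural stem and progenitor cells of the rat: Gfap, Aqp4, Slc1a2, Slc1a3, Glul, S100b, Aldh1l1, Gja1, Gjb6 and Aldoc. They were chosen by name, as genes in common use to recognise astrocytes, with earlier results of these arrays known. Of the 10 genes, 8 were measured among the 17245 genes tested, each by 1 probe set. Glul, which makes glutamine from glutamate, and Aldh1l1, a folate enzyme, had no probe set assigned to them alone and were not analysed here.

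The cultures were neurospheres of stem and progenitor cells (NSPCs) taken from the hippocampus of adult rats. Q-NSPCs received 10 ng/ml of the mitogen FGF2 together with 50 ng/ml of the quiescence signal BMP4, and A-NSPCs received 10 ng/ml of FGF2 alone, both for 4 days in vitro. Each condition has 3 biological replicates, each hybridised to its own Affymetrix rat gene array, so n = 3 throughout, and no label ties a replicate to an animal. Values are log2 intensities, on which 1 unit is a 2-fold difference. The p-values set the difference between the conditions against the spread between cultures within each condition, for these 6 cultures. Among markers of the labelled cell type, Sox2, a stem cell transcription factor, was at 12.47 to 12.55 in Q-NSPCs and 12.25 to 12.30 in A-NSPCs. Nes, the filament protein nestin, went the other way, at 8.90 to 9.58 in Q-NSPCs and 9.65 to 9.89 in A-NSPCs. An array gives signal at any probe set, so these levels do not establish the cell type. Q-NSPC replicate 1 differed from the other Q-NSPC arrays in many genes. Along the way from the A-NSPC mean to the mean of Q-NSPC replicates 2 and 3, its median place was 58.5% of that distance over the 2433 genes that changed and 61.1% over the 1364 that rose. Counts without this array are given beside those over all arrays, and values without it for some of the genes.

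Astrocytes and radial glia-like stem cells of the hippocampus share much of their gene expression, so that GFAP and the glutamate transporter GLAST mark both. In the developing and adult brain, BMP ligands act through SMAD proteins and Id factors to hold back neuronal differentiation, and together with STAT3 and NFI factors they favour the expression of astrocyte genes. The markers themselves belong to different functions of the mature astrocyte, namely the cytoskeleton, uptake of glutamate, water flow at the endfeet, coupling by gap junctions and metabolism.

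For the members on which the results turn, the 250 bases before a RefSeq transcription start (GRCr8) were searched on both strands. The motifs were the NFI site TTGGC, the STAT site TTCNNNGAA, the BMP SMAD site GGCGCC, the E-box CANNTG, and a TCF/LEF site, spelled CTTTGAA or with its last letters as AT, as TA or as TT. The windows of 3 genes are shown, that of Gfap because it was the only member that passed the test, and those of S100b and Slc1a3 as members that did not pass. Capitals mark matches to any of these motifs other than the E-box, read on either strand. The windows are chr10:88361662-88361911 for Gfap, chr20:12381082-12381331 for S100b and chr2:59557809-59558058 for Slc1a3, all on the minus strand and written 5′ to 3′ along the gene.
Gfap: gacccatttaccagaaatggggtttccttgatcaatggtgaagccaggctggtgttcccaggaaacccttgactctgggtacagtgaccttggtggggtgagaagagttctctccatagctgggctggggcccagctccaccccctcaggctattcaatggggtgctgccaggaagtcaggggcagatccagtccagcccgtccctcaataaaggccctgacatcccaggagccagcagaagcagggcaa
S100b: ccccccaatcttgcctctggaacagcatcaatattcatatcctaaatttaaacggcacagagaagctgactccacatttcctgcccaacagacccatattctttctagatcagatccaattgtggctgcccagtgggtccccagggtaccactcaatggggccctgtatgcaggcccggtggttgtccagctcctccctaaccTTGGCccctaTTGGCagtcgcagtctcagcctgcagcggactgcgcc
Slc1a3: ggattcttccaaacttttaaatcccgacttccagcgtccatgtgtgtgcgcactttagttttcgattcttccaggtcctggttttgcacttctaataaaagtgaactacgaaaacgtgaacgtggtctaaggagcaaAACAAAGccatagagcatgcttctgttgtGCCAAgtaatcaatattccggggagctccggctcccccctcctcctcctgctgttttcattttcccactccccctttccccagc
The Gfap window held no match to any of the 5 motifs. Of the measured members that did not pass, Aldoc, Gja1 and Aqp4 had no NFI site either. Gjb6, Slc1a2, S100b and Slc1a3 had it. The S100b window held NFI sites beginning 47 and 37 bases before the start, and the Slc1a3 window held an NFI site at 84 bases and a TCF/LEF match at 113 bases. Over all windows of the 10 genes, the NFI site was found for 5 genes, the E-box for 8, the TCF/LEF letters for 4, the BMP SMAD site for Glul alone (1 gene) and the STAT site for 0. Some genes have several starts, and of their 16 windows 7 held the NFI site, 12 the E-box, 6 a TCF/LEF match, 1 the BMP SMAD site and 0 the STAT site. Among all 33469 windows of the annotation, counted one by one in the same way, 40.3% held the NFI site, 65.5% the E-box, 14.9% a TCF/LEF match, 8.69% the BMP SMAD site and 7.67% the STAT site. Windows of 1 gene can overlap. These are matches of letters in a short window, and no binding was measured.

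Of the 8 measured markers, 1 rose in Q-NSPCs and 0 fell, where among all genes tested 7.91% rose and 6.2% fell by limma at an adjusted p under 0.05. The gene that rose was Gfap. At an unadjusted p under 0.05, 2 were higher, Gfap and Aldoc, and 0 were lower. At that threshold, 2800 of all 17245 genes tested were higher and 2290 were lower. Over these markers and the related lists, 49 named genes passed with all 6 arrays, and 15 of them, Gfap included, also passed whichever array was left out. Most of the 49 were named for a small p or because they passed. How many of the 2433 genes that changed would hold in this way was not counted. The median log2 fold change of the 8 markers was 0.03, and that of all genes was 0.01. In 2 markers, Gfap and Aldoc, all Q-NSPC arrays lay above all A-NSPC arrays, as they did in 18.7% of all genes. In these cultures, fewer cells of a type and less RNA per cell cannot be told apart.

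**Figure D1:**
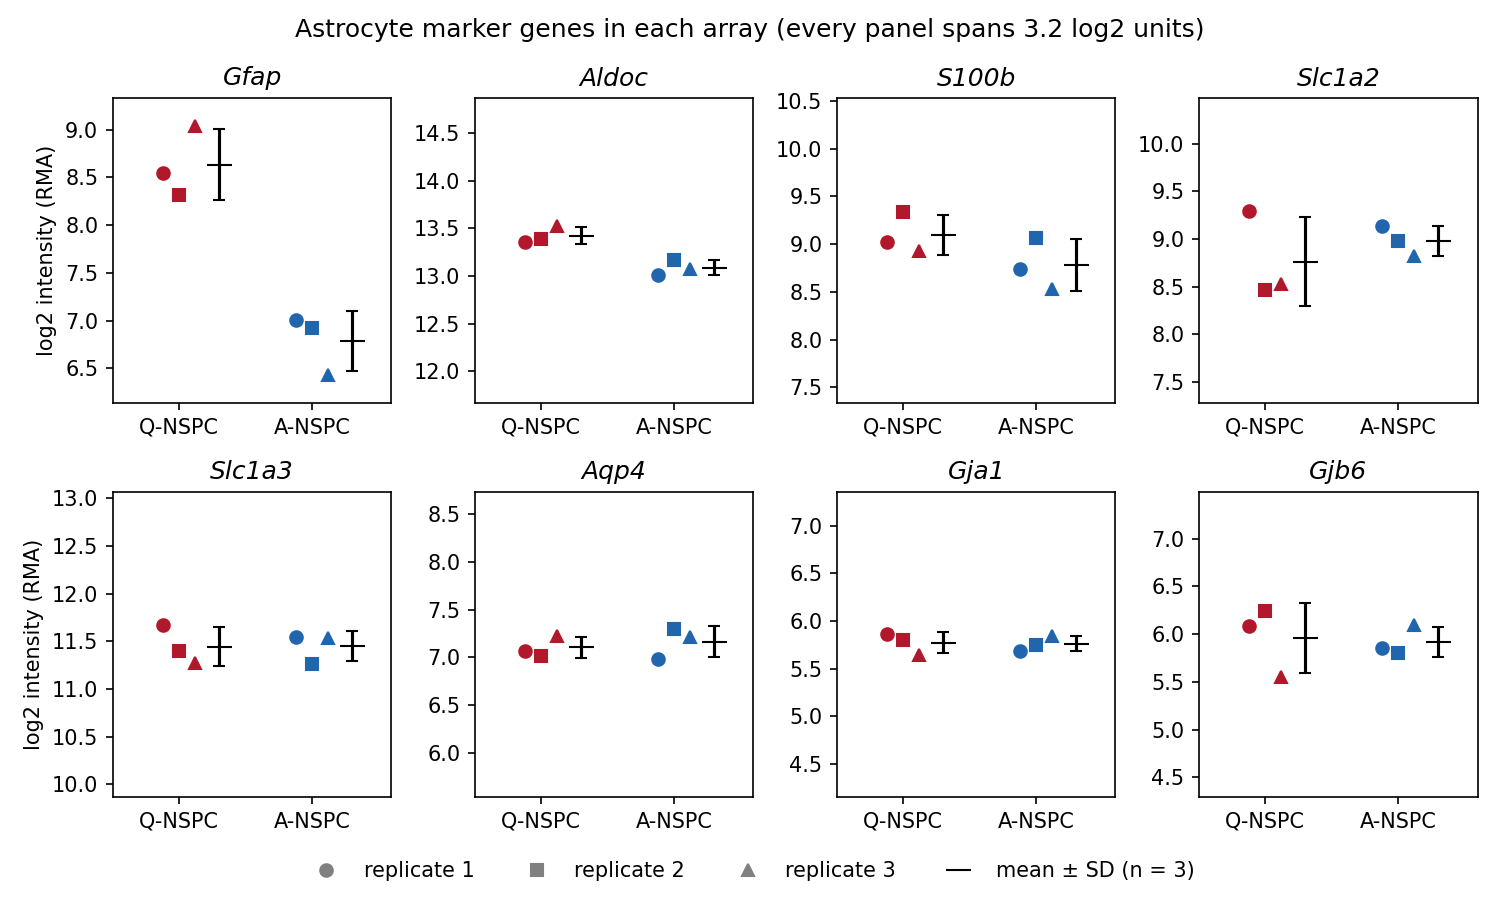
Log2 intensity of the 8 measured astrocyte marker genes in each array, Q-NSPC on the left and A-NSPC on the right of each panel, with a marker shape for each replicate and the group mean ± SD (n = 3). Gfap and Aldoc have all 3 Q-NSPC arrays above all 3 A-NSPC arrays, and the other 6 genes overlap.

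Gfap (probe set 10747948) encodes the intermediate filament protein of astrocytes and of radial glia-like stem cells. Its log2 intensity was 8.55, 8.31 and 9.04 in the 3 Q-NSPC arrays, against 7.01, 6.92 and 6.43 in the 3 A-NSPC arrays. The groups were far apart, and replicate 3 was at the same time the highest Q-NSPC and the lowest A-NSPC array. The mean was 8.63 ± 0.37 in Q-NSPCs and 6.78 ± 0.31 in A-NSPCs (SD, n = 3 each). Gfap thus rose 3.61-fold in Q-NSPCs (95% interval 2.57 to 5.07), a log2 fold change of 1.85 with a standard error of 0.21 (limma, adjusted p = 0.00374). Leaving out any single array kept the log2 fold change between 1.65 and 2.01.

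Aldoc (probe set 10745095), the brain aldolase of glycolysis that marks astrocytes, came next in size. It stood at 13.36, 13.39 and 13.52 in Q-NSPCs and at 13.01, 13.17 and 13.08 in A-NSPCs. These groups did not overlap, but they were separated by a small gap. Its log2 fold change was 0.34 (standard error 0.10, 95% interval 0.11 to 0.56), which is 1.26-fold, and it missed the threshold (limma, adjusted p = 0.0551). Without Q-NSPC replicate 1 the log2 fold change was 0.37 and passed (adjusted p = 0.0394). For Aldoa, the aldolase of most tissues, the value was -0.08 (adjusted p = 0.696).

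S100b (probe set 10832441), a calcium-binding protein of mature astrocytes, measured 9.03, 9.34 and 8.93 in Q-NSPCs and 8.74, 9.07 and 8.53 in A-NSPCs. In both conditions replicate 2 was the highest and replicate 3 the lowest, and the groups overlapped through A-NSPC replicate 2. The log2 fold change was 0.32 (95% interval -0.06 to 0.69, limma, adjusted p = 0.241). As a ratio of Q-NSPC over A-NSPC, the interval runs from 0.961 to 1.62.

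Neither of the glutamate transporters passed the test over all arrays. Slc1a2 (probe set 10838130), which encodes GLT-1, the main glutamate transporter of mature astrocytes, was at 9.29, 8.46 and 8.53 in Q-NSPCs and at 9.14, 8.98 and 8.82 in A-NSPCs. Q-NSPC replicate 1 was above every A-NSPC array, whereas Q-NSPC replicates 2 and 3 were below every A-NSPC array. The log2 fold change over all arrays was -0.21 (95% interval -0.71 to 0.28, limma, adjusted p = 0.581). Without Q-NSPC replicate 1 it was -0.48 and passed the test (adjusted p = 0.0235). Slc1a3 (probe set 10821824), which encodes GLAST, was at 11.67, 11.40 and 11.27 in Q-NSPCs and at 11.55, 11.27 and 11.53 in A-NSPCs. The arrays of both conditions were intermixed, and the means were 11.44 ± 0.21 in Q-NSPCs and 11.45 ± 0.16 in A-NSPCs. The 95% interval of its log2 fold change, -0.31 to 0.31 (limma, adjusted p = 0.995), leaves room for a 1.24-fold difference in either direction.

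The remaining markers were those of water flow and coupling. Aqp4 (probe set 10803305), the water channel of astrocyte endfeet, was at 7.07, 7.02 and 7.23 in Q-NSPCs and at 6.98, 7.29 and 7.22 in A-NSPCs. Gja1 (probe set 10830189), which encodes connexin 43, was at 5.86, 5.80 and 5.65 in Q-NSPCs and at 5.69, 5.75 and 5.84 in A-NSPCs. Gjb6 (probe set 10784120), which encodes connexin 30, was at 6.088, 6.241 and 5.547 in Q-NSPCs and at 5.850, 5.808 and 6.098 in A-NSPCs. In all 3 genes the arrays of the conditions overlapped, and Gjb6 had its lowest value in Q-NSPC replicate 3. The log2 fold change was -0.06 for Aqp4 (95% interval -0.33 to 0.21), 0.01 for Gja1 (-0.22 to 0.24) and 0.04 for Gjb6 (-0.38 to 0.46), with limma adjusted p-values of 0.798, 0.967 and 0.922 in that order. Gja1 and Gjb6 lay in the dimmest 25% of genes.

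**Figure D2:**
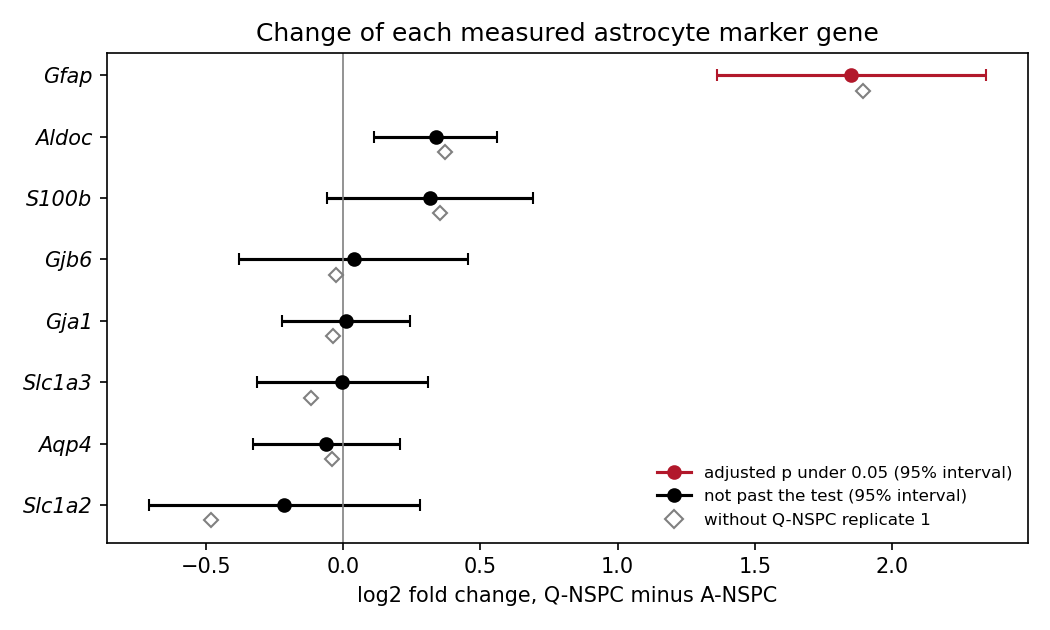
Log2 fold change, Q-NSPC minus A-NSPC, of the 8 measured markers with 95% intervals from limma, in red where the adjusted p is under 0.05, and with open diamonds for the value without Q-NSPC replicate 1. Gfap stands at 1.85, and the other 7 lie between -0.21 and 0.34.

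Measured the same way, Q-NSPC replicate 1 was at 93.3% of the distance for Gfap. Among the markers the distance of Q-NSPC replicate 1 from replicates 2 and 3 was greatest in Slc1a2, at 0.80 above their mean, and next in Slc1a3, at 0.34 above. Without that array 2 of the 8 markers rose, Gfap and Aldoc, and 1 fell, Slc1a2, while 12.7% of all genes rose and 10.9% fell.

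**Figure D3:**
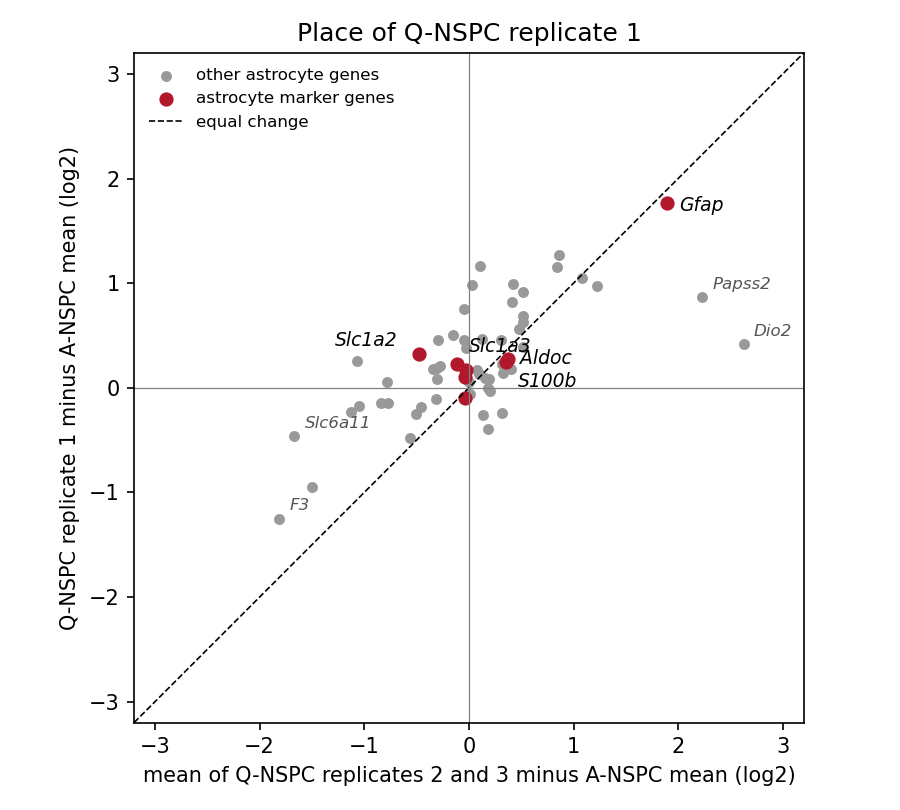
Difference from the A-NSPC mean of Q-NSPC replicate 1 (vertical axis, log2) against that of the mean of Q-NSPC replicates 2 and 3 (horizontal axis, log2), for the 8 markers in red and 53 other astrocyte genes in grey, with the line of equal change dashed. Gfap lies near the line, Slc1a2 lies above 0 in replicate 1 and below 0 in the others, and Dio2 and Papss2 lie far below the line.

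The genes whose profile over the 6 arrays was closest to that of Gfap were looked up among 1845 genes with a log2 range of at least 1. They were Ctnnal1, a relative of alpha-catenin (Pearson r = 0.995), Tox3, a chromatin-associated HMG-box protein (0.992), Reps2, an endocytosis adaptor (0.990), Siah3, of the Siah ubiquitin ligase family (0.989), and Kif21a, a kinesin motor (0.987). The other 7 measured markers had a smaller range and were not among the genes compared. Reps2 had the change nearest in size to that of Gfap, with 7.58, 7.47 and 8.33 in Q-NSPCs and 6.30, 5.82 and 5.66 in A-NSPCs. The arrays form a pair of conditions, so any gene with a difference like that of Gfap correlates with it, and the r values are a description.

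A wider set of 60 genes enriched in astrocytes moved in both directions. Of the 53 measured, 13 rose and 5 fell in Q-NSPCs, with a median log2 fold change of 0.12, beside 7.91% and 6.2% of all genes. Lcat, an enzyme that esterifies cholesterol on the lipoproteins astrocytes secrete, had 10.73, 11.03 and 10.93 in Q-NSPCs and 9.68, 9.83 and 9.74 in A-NSPCs. It rose 2.21-fold (log2 fold change 1.14, standard error 0.11, limma, adjusted p = 0.00226). F3, the tissue factor of coagulation, had 8.83, 8.33 and 8.22 in Q-NSPCs and 9.94, 10.17 and 10.15 in A-NSPCs, for a fall of 3.08-fold (adjusted p = 0.00251). Cldn10, a tight junction claudin, had 7.58, 7.01 and 7.06 in Q-NSPCs and 8.80, 8.38 and 8.43 in A-NSPCs, for a fall of 2.49-fold (adjusted p = 0.00612). None of these 3 genes, named for the smallest p of the list, overlapped between the conditions. All Q-NSPC arrays lay above all A-NSPC arrays in 18.7% of all genes, and the share for the other direction is not given.

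The other genes of this set that passed were singled out after their values were seen. Those that rose include receptors, namely the FGF receptor Fgfr3 (log2 fold change 0.56), the sphingosine phosphate receptor S1pr1 (1.00) and the phagocytic receptor Mertk (0.95). Secreted and surface proteins rose as well, among them Clu, the apolipoprotein clusterin (1.07), Sparcl1, a promoter of synapse formation (0.58), Tril, an accessory protein of Toll-like receptors (0.65), and Atp1b2, a subunit of the sodium pump (0.55). Metabolic genes that rose were Acsbg1 (0.61) and Slc27a1 (0.47), which handle long-chain fatty acids, Papss2 (1.77), which makes the donor for sulfation, and Dio2 (1.89), which activates thyroid hormone. Daam2, a formin, rose by 0.51. Those that fell were Slc6a11, the GABA transporter GAT-3 (-1.27), Fads2, a fatty acid desaturase (-0.54), and the protease inhibitor Timp4 (-0.42). Dio2 had 6.47, 8.60 and 8.75 in Q-NSPCs and 6.12, 5.87 and 6.15 in A-NSPCs, so that Q-NSPC replicate 1 was close to the A-NSPC arrays. Without that array the log2 fold change was 2.63 for Dio2, 2.23 for Papss2 and -1.67 for Slc6a11.

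Leaving out 1 array at a time gave 3 to 10 genes of the wider set that rose and 2 to 11 that fell, the highest counts being those without Q-NSPC replicate 1. In the absence of that array, 12.7% of all genes rose and 10.9% fell, and the shares without another array are not given. The 3 that rose were left without A-NSPC replicate 1 or 3, and the 2 that fell without these or without Q-NSPC replicate 3. Lcat, F3, Cldn10, S1pr1 and Mertk passed whichever array was left out. Atp1b2, Clu and Daam2 did not pass without Q-NSPC replicate 1. The 6 further genes that then passed as lower include Kcnj10, the potassium channel of astrocyte endfeet, at -0.78 (adjusted p = 0.0042). Over all arrays Kcnj10 spanned 10.00 to 11.04 in Q-NSPCs and 10.93 to 11.03 in A-NSPCs, with Q-NSPC replicate 1 the highest of all 6 arrays (log2 fold change -0.50, adjusted p = 0.188).

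**Figure D4:**
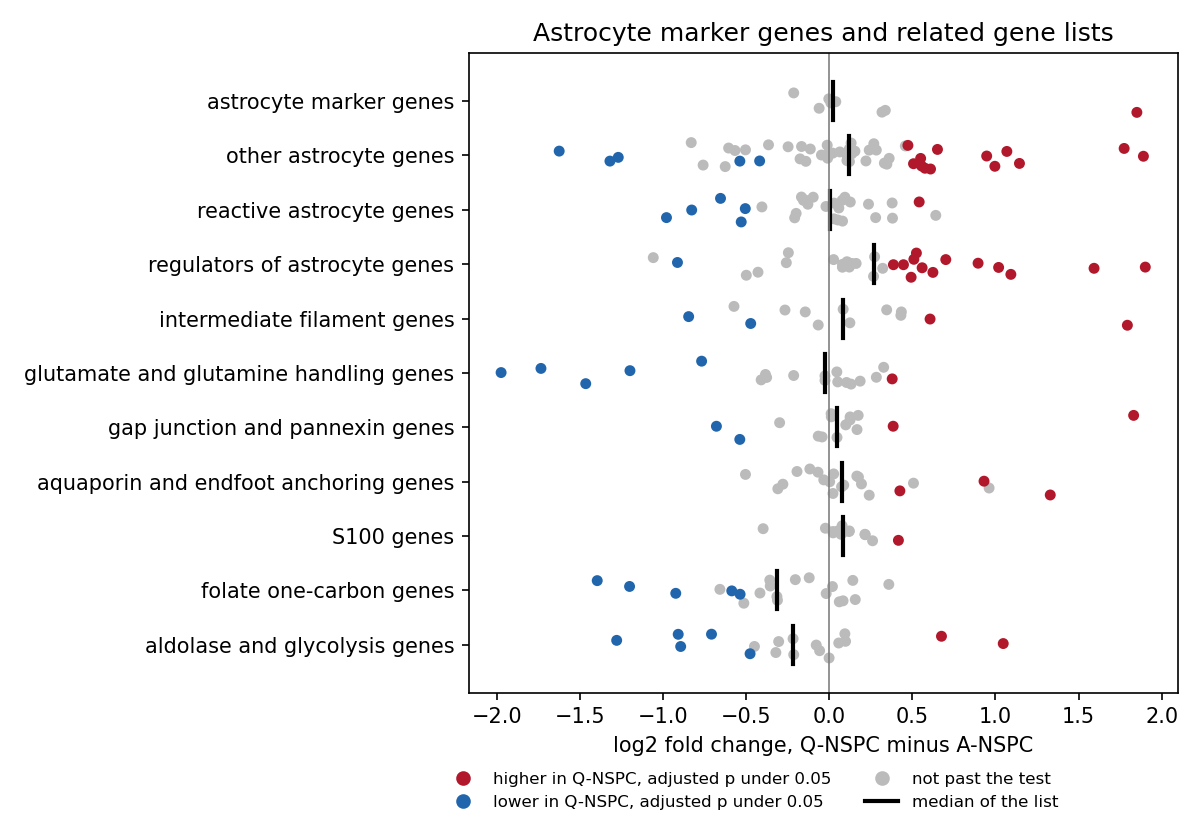
Log2 fold change, Q-NSPC minus A-NSPC, of each measured gene of the astrocyte markers and of 10 related lists, with red points for genes that rose, blue points for genes that fell, grey points for genes that did not pass and a black line at each list's median. The regulators have a median of 0.27 and the folate genes a median of -0.31, against 0.03 for the markers.

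Among the upstream regulators of astrocyte genes, rises outnumbered falls. Of 30 measured genes of BMP, JAK-STAT, NFI and related factors, 13 rose and 1 fell, with a median log2 fold change of 0.27. In this and the next paragraphs, list counts at an adjusted p under 0.05 stand beside shares of all genes. Over all 6 arrays these are 7.91% higher and 6.2% lower. Counts at an unadjusted p under 0.05 stand beside 2800 higher and 2290 lower of 17245 genes. Each count without Q-NSPC replicate 1 stands beside 12.7% of all genes higher and 10.9% lower. For counts without another array, or tested over all probe sets, the share of all genes is not given. No difference between a list and all genes was tested. Id4, an inhibitor of bHLH factors and a target of BMP signalling, had 10.29, 10.37 and 10.67 in Q-NSPCs and 8.72, 8.98 and 8.85 in A-NSPCs (log2 fold change 1.59, limma, adjusted p = 0.0016). Id1, another BMP target, rose by 1.02 on that scale (adjusted p = 0.00676). Nfia, an NFI factor that starts gliogenesis in the mouse spinal cord, had 12.50, 12.74 and 12.81 in Q-NSPCs and 11.51, 11.81 and 11.45 in A-NSPCs (log2 fold change 1.09, adjusted p = 0.00453). These 3 genes, named for the smallest p of the list, passed whichever array was left out. Their Q-NSPC arrays all lay above their A-NSPC arrays, as in 18.7% of all genes. The gene that fell was Olig2, a factor of the oligodendrocyte lineage, with 9.98, 8.96 and 9.11 in Q-NSPCs and 10.19, 10.23 and 10.36 in A-NSPCs (-0.91, adjusted p = 0.0419). Leaving out 1 array gave 5 to 14 regulators higher and 0 to 4 lower, with the highest counts again without Q-NSPC replicate 1, and the count of 5 without A-NSPC replicate 1 or Q-NSPC replicate 3. Of 28 genes of reactive astrocytes, the state seen after injury, 5 fell and 1 rose, with a median of 0.00, and the log2 fold change was above 0 in 14 and below 0 in 14. Tested over all probe sets, 1 of them fell and 1 rose. S1pr3, a receptor, had -0.65, Cd109, a surface protein that binds TGF-beta, had -0.50, and Serping1, an inhibitor of complement C1, had 0.54. In this list 3 genes rose and 3 fell in the absence of Q-NSPC replicate 1, whereas 0 passed in the absence of Q-NSPC replicate 3.

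The relatives of each marker are given list by list, and the small counts in them are not read as a trait of a family. In the intermediate filament family of Gfap, 2 of 13 rose and 2 fell, with a median of 0.08. The 2 that rose were the neurofilament subunits Nefl (log2 fold change 1.79, limma, adjusted p = 0.00674) and Nefm (0.61, adjusted p = 0.033), which are filaments of neurons. The nuclear lamin Lmnb2 had -0.47 (adjusted p = 0.0249). Nefl had 8.08, 9.20 and 8.89 in Q-NSPCs and 7.08, 6.81 and 6.90 in A-NSPCs, and passed whichever array was left out. Leaving out 1 array gave 1 to 3 filament genes higher and 0 to 3 lower, where 3 rose and 3 fell in the absence of Q-NSPC replicate 1, and 1 rose and 0 fell in the absence of any other array.

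Of 19 genes that move or convert glutamate and glutamine, 5 fell and 1 rose, with a median of -0.03. Slc38a3, a glutamine transporter, had 11.30, 9.34 and 9.84 in Q-NSPCs and 12.03, 12.18 and 12.20 in A-NSPCs, a log2 fold change of -1.97 (limma, adjusted p = 0.0223), or -2.54 without Q-NSPC replicate 1. Slc1a4, a neutral amino acid transporter of the same family as Slc1a2 and Slc1a3, fell by 1.46 (adjusted p = 0.0129), and Slc1a1, the glutamate transporter of neurons, by 1.20 (adjusted p = 0.0259). Got1, the cytosolic aspartate aminotransferase, fell by 0.77 (adjusted p = 0.00718), and Slc25a22, a mitochondrial glutamate carrier, rose by 0.38 (adjusted p = 0.0484). Slc25a22 kept its call in 4 of 14 alternatives, with an adjusted p of 0.0394 to 0.161 over them. Of the other measured genes of the Slc1a family, Slc1a5, Slc1a6 and Slc1a7 had log2 fold changes of -0.38, -0.03 and 0.33, and none passed. Leaving out 1 array gave 0 to 2 genes higher, with the 2 in the absence of A-NSPC replicate 2, and 1 to 7 genes lower, of which 7 were seen in the absence of Q-NSPC replicate 1 and 1 in the absence of A-NSPC replicate 1, A-NSPC replicate 3 or Q-NSPC replicate 3. Got1 passed each time.

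In the connexin and pannexin list 2 of 15 rose and 2 fell, with a median of 0.05. Leaving out 1 array gave 1 to 2 higher and 0 to 2 lower, with 2 and 2 in the absence of Q-NSPC replicate 1 and 0 lower in the absence of A-NSPC replicate 1 or 3 or of Q-NSPC replicate 2 or 3. Panx3, a pannexin channel best known from bone and skin, had 6.82, 7.66 and 7.50 in Q-NSPCs and 5.38, 5.56 and 5.54 in A-NSPCs, and rose by 1.83 on the log2 scale (limma, adjusted p = 0.00334). The connexins Gjd3 and Gjc3 had -0.54 and -0.68 (adjusted p = 0.0333 and 0.0432), and Gjc3 is a connexin of oligodendrocytes. Of Panx3, Gjd3 and Gjc3, Panx3 alone passed whichever array was left out. Among aquaporins and the proteins that anchor Aqp4 at the endfeet, 3 of 21 rose and 0 fell (5 and 0 with an unadjusted p under 0.05), with a median of 0.07. Aqp1, a water channel of the choroid plexus, had 9.22, 10.18 and 9.48 in Q-NSPCs and 8.27, 8.36 and 8.27 in A-NSPCs (log2 fold change 1.33, adjusted p = 0.0105). The syntrophins Sntb1 and Sntb2, adaptors of the dystrophin complex, had 0.93 and 0.43 (adjusted p = 0.00334 and 0.033). In the endfoot list 5 genes rose and 2 fell without Q-NSPC replicate 1, and without A-NSPC replicate 1 or 3, 1 rose, which was Sntb1.

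Of 14 S100 genes 1 rose and 0 fell, a share of rises near the 7.91% of all genes, with a median of 0.09 and 1 lower at an unadjusted p under 0.05. S100a1, a close relative of S100b, had 10.64, 10.78 and 10.83 in Q-NSPCs and 10.31, 10.49 and 10.20 in A-NSPCs (log2 fold change 0.42, limma, adjusted p = 0.0427). S100a3 had -0.40 (adjusted p = 0.0788) and S100a14 had 0.26 (adjusted p = 0.101). For Aldh1l1, the folate pathway around it could be followed, and 5 of 21 genes fell and 0 rose, with 1 higher at an unadjusted p under 0.05 and a median of -0.31. Mthfd2 and Shmt2, mitochondrial enzymes that feed one-carbon units into nucleotide synthesis, had log2 fold changes of -1.40 and -0.92 (adjusted p = 0.0186 and 0.0332), and the cytosolic Shmt1 had -1.20 (adjusted p = 0.0354), or -1.603 without Q-NSPC replicate 1. Mthfs had 0.36 (adjusted p = 0.0813). Of the folate genes 11 fell and 1 rose without Q-NSPC replicate 1, and of the S100 genes 2 rose and 1 fell. Without A-NSPC replicate 1 or 3, or without Q-NSPC replicate 2 or 3, 0 genes passed in either of these lists.

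Around Aldoc, 5 of 18 genes of glycolysis and glucose uptake fell and 2 rose, with a median of -0.22. Hk2, a hexokinase, had 8.37, 7.37 and 7.57 in Q-NSPCs and 9.03, 8.87 and 9.25 in A-NSPCs (log2 fold change -1.28, limma, adjusted p = 0.0158). The platelet-type phosphofructokinase Pfkp had -0.89 (adjusted p = 0.0148), whereas the muscle-type subunit Pfkm had 0.68 (adjusted p = 0.0112). Hk2 had -1.58 without Q-NSPC replicate 1. Pfkm was at 11.71, 12.01 and 12.03 in Q-NSPCs and at 11.23, 11.28 and 11.21 in A-NSPCs. All its Q-NSPC arrays lay above its A-NSPC arrays, as in 18.7% of all genes. In this list 2 genes rose and 7 fell without Q-NSPC replicate 1, and without A-NSPC replicate 1, A-NSPC replicate 3 or Q-NSPC replicate 3, 0 passed.

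Genes of neural stem cells and radial glia, which share several of the astrocyte markers, were also mixed, with 4 of 18 higher and 2 lower and a median of 0.02. Hopx, a marker of quiescent stem cells of the dentate gyrus in mice, had 7.76, 7.39 and 7.34 in Q-NSPCs and 8.94, 8.82 and 8.85 in A-NSPCs, with a log2 fold change of -1.37 (limma, adjusted p = 0.00204). Pax6, a transcription factor of radial glia, had 8.22, 8.33 and 8.31 in Q-NSPCs and 7.24, 7.48 and 6.92 in A-NSPCs, and rose by 1.07 (adjusted p = 0.00576). Without Q-NSPC replicate 1, 4 of these genes rose and 7 fell. Hopx and Pax6 passed whichever array was left out.

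Other genes of the cultures also differed between the conditions. Of 19 proliferation genes 14 fell and 0 rose, with a median log2 fold change of -1.01 and 0 higher at an unadjusted p under 0.05. Of 15 markers of neurons 8 rose and 1 fell, and their summed linear intensity was 28259 to 43844 in Q-NSPCs and 17017 to 17421 in A-NSPCs. Gad1, which makes GABA, had the highest rise of these (log2 fold change 4.40, limma, adjusted p = 0.00165), and the young-neuron genes Tubb3 and Dcx had 1.78 and 1.17, while Rbfox3, a marker of mature neurons, had -0.69. Of 13 markers of the oligodendrocyte lineage 3 fell and 0 rose (8 and 0 with an unadjusted p under 0.05), with a sum of 6676 to 16650 in Q-NSPCs and 18785 to 19841 in A-NSPCs. In this sum Q-NSPC replicate 1 was the highest Q-NSPC array, and in that of the neurons the lowest. Without it 9 oligodendrocyte markers fell, 19 proliferation genes fell and the counts for neurons stayed at 8 and 1.

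Few markers of other cell types passed. Of 14 microglial and 10 endothelial markers 0 passed, with 1 lower in each at an unadjusted p under 0.05. Without Q-NSPC replicate 1, 1 endothelial marker fell, and 0 microglial markers passed. Their summed intensities overlapped, at 1622 to 1741 in Q-NSPCs and 1620 to 1710 in A-NSPCs for microglia and at 827 to 888 in Q-NSPCs and 807 to 899 in A-NSPCs for endothelium. Of 11 mural and fibroblast markers 1 rose, Tagln, which did not pass without Q-NSPC replicate 1, with a sum of 1461 to 1657 in Q-NSPCs and 1469 to 1669 in A-NSPCs. Of 8 ependymal markers 1 rose, the dynein Dnah11 (log2 fold change 1.86, limma, adjusted p = 0.00576), with a sum of 677 to 842 in Q-NSPCs and 543 to 572 in A-NSPCs. An array gives signal at any probe set, so none of these markers can be read as being at 0. The part of these other cell types in the levels of Gfap and the other markers was not tested.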

How the data were processed

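Total RNA of 3 Q-NSPC and 3 A-NSPC cultures was hybridised to Affymetrix rat gene arrays, with no batch given in the labels. Per the labels, the authors processed the arrays with Affymetrix Expression Console, RMA and Partek 6.10. The deposited table holds log2 intensities of 29214 probe sets, and array medians were 7.53 to 7.57. RMA compresses differences at low intensity. All value columns were assigned to a sample (0 left out). Of the probe sets, 18644 had 1 gene symbol, 962 had several and 9608 had none in the platform annotation, and only those with 1 symbol were used. For the 879 genes with several probe sets, the one with the highest mean was taken. The 6 arrays limit the precision.

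Q-NSPC minus A-NSPC was tested over 17245 genes with limma 3.58.1 in R 4.3.3 (lmFit and eBayes, Benjamini-Hochberg adjustment, adjusted p under 0.05), with intervals at 95%. The procedure was tested on simulated data. Members and lists were chosen with earlier results of these arrays known. Genes were named by rule: all markers, the 3 genes with the smallest p in each list and the smallest p in the other direction, the 5 genes most correlated with Gfap, and relatives of a marker. Sox2, Nes and genes described as singled out lie outside it. Promoter sequences are from RefSeq (GRCr8). A comparison of protein sequences was planned and not run. Alternatives were another variance model, a replicate block, other probe set rules, a dim-gene filter, other scalings, a t-test and leaving out each array.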

Additional observations from a re-analysis of the deposited data

How the results depend on the processing

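Gfap kept its direction under all 14 alternatives, with a log2 fold change of 1.65 to 2.01 and an adjusted p of 0.000877 to 0.102, the highest being that of the unpaired t-test (1.85), under which 0 markers and 0 of the other astrocyte genes passed in either direction (2 markers higher and 0 lower, and 13 other astrocyte genes higher and 5 lower, at its unadjusted p under 0.05). The number of markers that rose was 2, with Aldoc added, when eBayes used a trend and robust variances, when dim genes were left out and when arrays were quantile normalized again, at log2 fold changes of 0.34, 0.34 and 0.34 for Aldoc. Leaving out 1 array at a time gave 1 to 2 markers higher and 0 to 1 lower, with Aldoc at 0.29 to 0.38 and Slc1a2 at -0.48 to -0.063, and the markers gained were those without Q-NSPC replicate 1. It gave 3 to 10 other astrocyte genes higher and 2 to 11 lower. The count of those higher was 3, 7 and 3 without A-NSPC replicates 1, 2 and 3, and 6 and 4 without Q-NSPC replicates 2 and 3, and the count lower was 2, 3 and 2 without A-NSPC replicates 1, 2 and 3, and 3 and 2 without Q-NSPC replicates 2 and 3. Fewer arrays were fitted in each. Apart from the fit without Q-NSPC replicate 1, the share of all genes is not given for any alternative. A drop in these counts can therefore not be told apart from a drop over all genes. Testing over all probe sets gave 8 higher. With the replicate block, Gfap had 1.85 (adjusted p = 0.0108), and 1 marker was higher, with 10 other astrocyte genes higher and 4 lower. The labels do not say that a replicate number marks a shared culture or day, so the shared numbers were not taken as pairs. Deviations of same-numbered arrays correlated at -0.055, 0.0092 and -0.0342, and those of other-numbered arrays at -0.0428 to 0.0828. Gja1 and Gjb6 were removed by the dim-gene filter. With 3 arrays per condition and such dim probe sets, their standard errors were 0.10 for Gja1 and 0.18 for Gjb6. Changes inside their 95% intervals remain possible, and the smallest change that would have passed was not computed.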
